A study of Mus musculus with 2 samples.

Results

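Myadm, Sncg, Tns1, Dlgap1, Sipa1l2, Ccdc122, Eif3j2, Scel and Akr1c18 are 9 of the 32286 features measured in 2 single-cell RNA-seq libraries of mouse skin epidermis. They were selected on their measured UMI levels: beside Birc5, each was higher over all keratinocyte states in the Survivin gain-of-function (GOF) library than in the control, in cells with at least 1500 genes and at most 10% mitochondrial UMIs. That difference is therefore what chose them, and it is given below as a description with no test. The choice set no numeric threshold, and the smallest pooled excess among the 9 was the 2.10-fold of Scel. The questions followed here are where in the epidermis each gene was expressed, and whether its level followed the amount of Birc5 per cell inside the GOF library.

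Mice of the control were Involucrin-CREER/Rosa-SmoM2, and those of the other library carried Krt14rtTA and the Survivin GOF allele as well. Both genotypes thus share SmoM2, an active form of the hedgehog pathway component Smoothened, switched on through a Cre driven by the involucrin promoter, a gene of differentiating keratinocytes, while the Krt14 promoter that drives rtTA is active in basal keratinocytes. Per the labels' protocols, both sorts kept YFP-positive cells with high integrin α6 and no CD34. The number, sex and age of the mice and the dosing of inducing agents are not given in the sources used here.

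Survivin, the product of Birc5, works in the chromosomal passenger complex, which corrects chromosome attachment and drives the end of cell division, and it belongs to the inhibitor of apoptosis family. Birc5 is normally transcribed in dividing cells. In skin, hedgehog signalling switched on in keratinocytes is the pathway behind basal cell carcinoma.

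Levels come from unique molecular identifiers (UMIs), each standing for 1 captured transcript, summed over the cells of a population and scaled to the total of that population as counts per 1e6 UMIs (CPM). There is 1 library per genotype, so no test and no replicate check of genotype is possible. Every interval is a 95% interval of counting error only and says nothing about the spread between mice or between cells. The control library held 10128 keratinocytes with 99264013 UMIs and the GOF library 6325 with 98157204 UMIs, at medians of 7638.5 and 12317 UMIs per cell. The keratin genes Krt14 and Krt5 stood at 12890 and 6520 CPM in control and 15308 and 7576 CPM in GOF keratinocytes, whereas Cd34 was at 0.232 and 0.55 CPM. YFP transcripts were at 12.3 and 7.90 CPM, and the melanocyte marker Mlana and the leukocyte marker Ptprc at 8.38 and 0.242 CPM in control and 2.27 and 0.0509 CPM in GOF keratinocytes. Of the keratinocytes, 18 carried a barcode that occurs in both libraries. The libraries also differed in sex. Cells with a Y-linked UMI and no Xist UMI are called male-called, and cells with the reverse female-called: the control held 7355 and 30 of these, the GOF library 1806 and 3611. Birc5 itself was at 55.2 CPM in the control keratinocytes, and in the GOF ones at 793 CPM.

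The cells fell into 22 clusters, computed without Birc5 and the 9 genes. Clusters 0, 1, 3, 14 and 21 came nearly from 1 library each, for example cluster 0 with 22 control and 1648 GOF cells. It had basal keratinocyte markers and, among its 10 leading genes, Myadm and Tns1. Leading genes were ranked against all other cells of both libraries. In a cluster of nearly only GOF cells that ranking favours genes chosen for a higher GOF level. There were 12 clusters with at least 100 cells of each library, called shared clusters here. They comprised basaloid-like (2 and 5), cycling basaloid-like (7), cycling (8), differentiating-like (4), tail scale-like (6 and 11), upper follicle-like (10), cycling with upper follicle markers (15), bulge-like (12) and sebaceous gland-like cells (13), and the unnamed cluster 9 led by Ntrk2 and Adh7. YFP transcripts were uneven over clusters. Control cells of clusters 2, 5 and 7 held 30.9, 36.4 and 32.4 CPM, and GOF cells 30.3, 29.8 and 31.8 CPM. GOF cells of clusters 4, 9, 10, 11 and 13 had 0.306 to 1.12 CPM, from 1 to 9 UMIs. Control cells there had 1.20 to 5.61 CPM. GOF cells of cluster 0 had 0.930 CPM, from 19 UMIs in 1648 cells. The GOF level was higher in 1 of 12 shared clusters. Whether cells low in YFP transcripts carried active SmoM2 was not tested.

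Of the genes with at least 100 pooled UMIs, 1.73% were at least 2-fold higher in GOF keratinocytes, beside 9 of the 9 chosen genes, a count that the choice itself fixes. Cluster shares differ between the libraries, so the ratio was also formed within each of 16 clusters and pooled over them (the Mantel-Haenszel ratio, called clusters weighted alike). The name means that a cluster has the same weight on both sides of a comparison. Clusters with more UMIs count for more, so it is not an equal average over clusters. By this ratio 5 of the 9 were at least 2-fold higher, beside 1.6% of all genes tested, and none was 2-fold lower, beside 1.3%. In male-called cells 7 of the 9 were higher, beside 1.11%, and none lower, beside 2.31%. In male-called cells with clusters weighted alike 4 of the 9 were higher, beside 0.7%. The 4 were Myadm, Sncg, Ccdc122 and Eif3j2. In each of the 12 shared clusters the GOF level lay above the control level for 5 of the 9, namely Myadm, Tns1, Ccdc122, Eif3j2 and Scel, beside 6.83% of all genes. These counts rest on the contrast that chose the genes and are no support for it.

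**Figure D1:**
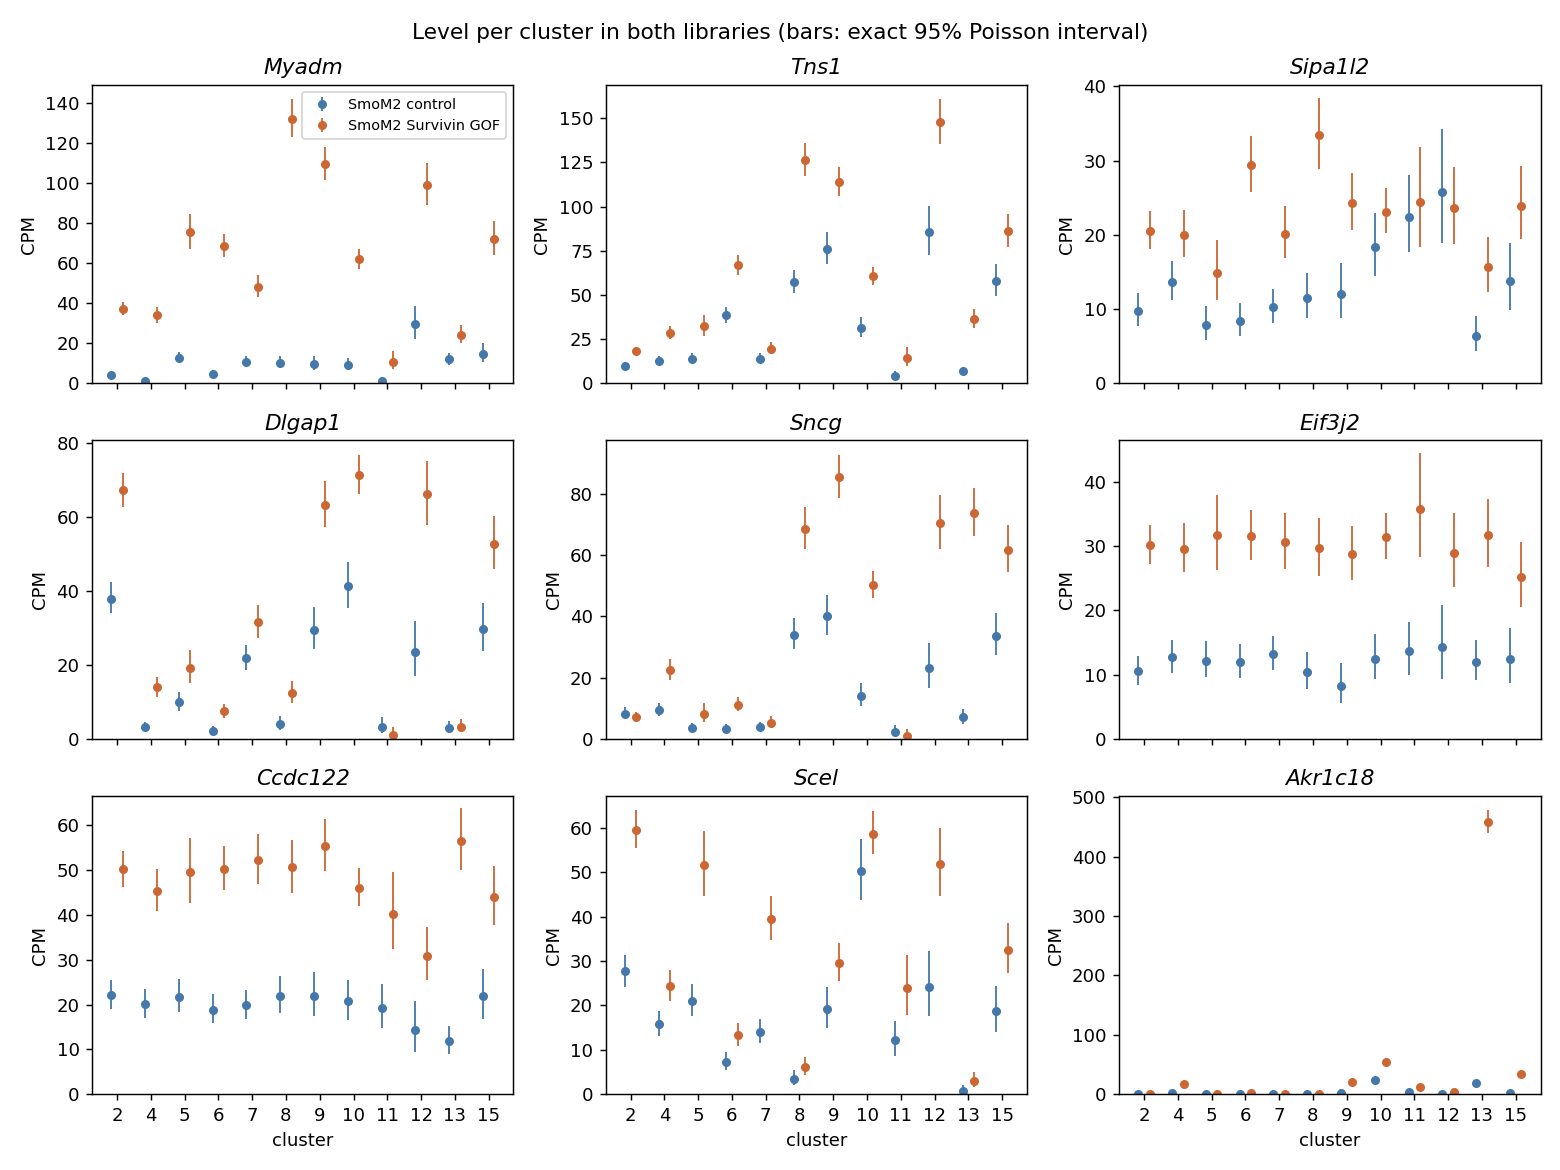
Level of each of the 9 genes (vertical axes, CPM from 0) in the 12 shared clusters (horizontal axis, cluster number) in the control (blue) and GOF (orange) libraries. Points are summed UMIs of 1 library and bars are exact 95% Poisson intervals. Eif3j2 and Ccdc122 vary less from cluster to cluster than the rest of the 9, whereas Akr1c18 stands out in cluster 13 of the GOF library at 459 CPM.

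Myadm encodes a membrane protein with MARVEL domains, first described in differentiating myeloid cells. The gene (ENSMUSG00000068566, protein-coding) lies on chromosome 7 at 3289080 to 3300442 of mm10, on the plus strand. Its 280 bases from before to just past the first RefSeq transcription start (RefSeq GRCm38.p6, chr7:3288788-3289067, plus strand) are shown because Myadm had the largest excess of the 9 in male-called cells. The capitals mark the 30 bases from the start site on.
Myadm: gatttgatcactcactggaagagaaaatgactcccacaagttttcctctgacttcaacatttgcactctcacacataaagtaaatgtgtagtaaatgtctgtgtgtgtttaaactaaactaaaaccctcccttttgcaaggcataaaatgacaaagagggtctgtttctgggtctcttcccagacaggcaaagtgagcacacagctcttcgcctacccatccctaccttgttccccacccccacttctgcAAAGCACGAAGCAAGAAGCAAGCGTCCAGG
This stretch has 45.4% G and C and 3 CpG dinucleotides. RefSeq lists 3 further Myadm starts, whose 300-base windows hold 10 or 13 CpG against a median of 7 over 32544 promoter windows.

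Control keratinocytes had 8.60 CPM of Myadm from 854 UMIs and GOF keratinocytes 78.6 CPM from 7714 UMIs, 9.13-fold apart (8.51 to 9.82). The ratio was 7.03 with clusters weighted alike and 8.54 in male-called cells. It was at least 2-fold higher in each of the 12 shared clusters, from 2.02-fold in sebaceous gland-like cluster 13 to 24.5-fold in differentiating-like cluster 4, where the control level was 1.39 CPM. Among keratinocyte clusters with at least 100 GOF cells the highest GOF levels were in cluster 0 (138 CPM), cycling cluster 8 (132 CPM), cluster 9 (110 CPM) and bulge-like cluster 12 (99.4 CPM). The lowest among the shared clusters was tail scale-like cluster 11 (10.8 CPM). Cluster 0 alone held 36.5% of the Myadm UMIs of the GOF library. Outside clusters 0, 1, 3, 14 and 21 the excess was 7.26-fold.

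Myadm was also counted in the clusters with markers of other cell types. Melanocyte-like cells (120 control and 121 GOF cells) had 24.9 and 108 CPM, and immune-like cells (46 and 48 cells) 24.6 and 119 CPM. Within the melanocyte-like cells, cluster 16 had 17.2 and 118 CPM and the smaller cluster 20 had 88.6 and 56.9 CPM, the latter a ratio of 0.643 (0.296 to 1.45). Melanocyte-like cells also held Krt14 at 17543 and 20108 CPM, above the keratinocyte levels, and Birc5 at 31.4 and 703 CPM. The part of keratinocyte RNA in these values was not tested. After thinning each cell to 3000 UMIs, a Myadm UMI was present in 2.60% of the control keratinocytes and in 20.9% of the GOF ones (7.63% and 54.2% before), and in 9.17% and 19.8% of melanocyte-like cells.

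Of 12 other measured genes of the Myadm and MAL family, 1 was at least 2-fold higher and none lower. This was Mal, a myelin and lymphocyte protein, at 0.856 and 2.87 CPM. In male-called cells its ratio was 0.493. Its relatives Mall, Cmtm7 and Marveld3 had ratios of 0.812, 0.837 and 1.21. Across the 13 keratinocyte clusters with at least 100 GOF cells, the profiles most like that of Myadm were those of Itga6, the integrin α6 chain used in the sort (Pearson r = 0.959), and Ehd2, a membrane-shaping protein (r = 0.952), among 9530 candidate genes. Such likeness is a description over clusters of 1 library.

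Tns1 encodes tensin 1, which ties integrin tails to actin at focal and fibrillar adhesions (ENSMUSG00000055322, chromosome 1, 73910231 to 74124449, minus strand). Control keratinocytes had 32.3 CPM and GOF keratinocytes 76.2 CPM, 2.35-fold apart (2.26 to 2.45). With clusters weighted alike the ratio was 1.86, in male-called cells 2.15, and in male-called cells with clusters weighted alike 1.51. The GOF level was higher in 12 of 12 shared clusters, from 1.41-fold in cluster 7 to 5.37-fold in cluster 13. Among the same clusters the GOF level of Tns1 was highest in bulge-like cluster 12 (85.5 and 148 CPM), cluster 0 (144 CPM in the GOF library) and cycling cluster 8 (57.2 and 126 CPM). It was lowest in tail scale-like cluster 11 (4.14 and 14.5 CPM) and basaloid-like cluster 2 (9.55 and 18.1 CPM). Over the 13 clusters the profiles of Tns1 and Myadm had r = 0.847, and the most similar other genes were Glud1 (glutamate dehydrogenase, r = 0.957) and the matrix protein gene Matn2 (r = 0.955).

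The other tensins were closer between the libraries. Tns2 had a ratio of 1.48, Tns3 1.26 and Tns4 1.16. Of 18 measured focal adhesion partners none was at least 2-fold higher or lower, and the extremes were talin gene Tln1 at 1.45-fold and the GTPase regulator Dlc1 at 0.84-fold. Integrin β1 (Itgb1) was at 136 and 179 CPM.

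Sipa1l2 belongs to the SIPA1 family of proteins that inactivate the small GTPase Rap, a switch for cell adhesion (ENSMUSG00000001995, chromosome 8, 125418063 to 125569808, minus strand). It stood at 10.6 and 26.0 CPM, 2.45-fold apart (2.28 to 2.63). The ratio was 1.88 with clusters weighted alike, 1.96 in male-called cells and 1.92 outside clusters 0, 1, 3, 14 and 21. The largest ratio in a shared cluster was 3.51 in tail scale-like cluster 6 (8.38 and 29.4 CPM). In bulge-like cluster 12 the values were 25.8 and 23.6 CPM, a ratio of 0.914 (0.632 to 1.34). Among the shared clusters, control cells had their highest Sipa1l2 levels in clusters 12, 11 and 10, the 3 with the smallest ratios. None of 13 other measured genes of the Rap cycle was at least 2-fold higher or lower: Rap2a was at 1.46-fold, the exchange factor gene Rapgef2 at 1.41-fold, and the family members Sipa1l1 and Sipa1l3 at 1.05- and 0.943-fold.

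Dlgap1 encodes a scaffold of the postsynaptic density that binds Dlg proteins (ENSMUSG00000003279, chromosome 17, 69969073 to 70821413, plus strand). Its level was 13.8 CPM in the control keratinocytes, against 34.2 CPM in the GOF ones, 2.49-fold apart (2.33 to 2.65), with a ratio of 1.91 when clusters were weighted alike and 2.87 in male-called cells. Expression was patchy. In both libraries it was highest in upper follicle-like cluster 10 (41.4 and 71.4 CPM) and basaloid-like cluster 2 (38.0 and 67.2 CPM), and bulge-like cluster 12 had 23.6 and 66.1 CPM. Sebaceous gland-like cluster 13 had 2.79 and 3.21 CPM from 14 and 15 UMIs, a ratio of 1.15 (0.518 to 2.57). Tail scale-like cluster 11 had 3.25 and 0.904 CPM from 11 and 2 UMIs, a ratio of 0.278 (0.03 to 1.27). These counts are few, and the interval of cluster 13 includes the pooled ratio. The most similar profiles were those of Arhgap42, a GTPase-activating protein (r = 0.973), and the Wnt inhibitor Apcdd1 (r = 0.964). The relatives Dlgap4 and Dlgap5 had ratios of 1.01 and 0.984. Of 9 measured Dlgap partners none was 2-fold higher or lower, with Dlg4 at 0.679 and Homer1 at 1.29.

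Sncg encodes γ-synuclein, a small protein of the synuclein family best known in neurons (ENSMUSG00000023064, chromosome 14, 34370274 to 34374789, minus strand). It stood at 15.7 and 45.8 CPM, 2.93-fold apart (2.76 to 3.10). The ratio was 2.37 with clusters weighted alike and 2.76 in male-called cells. The difference between libraries was uneven over clusters. It reached 10.6-fold in sebaceous gland-like cluster 13 (6.98 and 73.7 CPM) and 3.56-fold in upper follicle-like cluster 10. In basaloid-like cluster 2 the values were 8.13 and 7.01 CPM, and in tail scale-like cluster 11 they were 2.36 and 0.904 CPM. Cluster 18, a small unnamed group of 20 control and 72 GOF cells led by Saa3 and Lcn2, had the highest Sncg level in both libraries, 232 and 244 CPM, without a difference beyond its interval (ratio 1.05, 0.751 to 1.51). The most similar profiles were those of annexin gene Anxa5 (r = 0.967) and the complement regulator gene Cd59a (r = 0.937). No other synuclein list gene reached 100 pooled UMIs.

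Eif3j2 encodes a form of the loosely bound j subunit of translation initiation factor 3 (ENSMUSG00000043424, chromosome 18, 43475418 to 43477796, minus strand). GOF keratinocytes had 30.6 CPM of it and control keratinocytes 11.4 CPM, 2.69-fold apart (2.51 to 2.88). Unlike the adhesion genes it was nearly flat over the epidermis, between 8.22 and 14.3 CPM in the shared clusters of the control and between 25.2 and 35.7 CPM in those of the GOF library. The 2 ranges do not overlap, which the choice of the gene for a higher GOF level favours. The share of all genes with such ranges was not computed. The ratio in a shared cluster ran from 2.02 to 3.50. The ratio was 2.59 with clusters weighted alike and 3.0 in male-called cells.

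Eif3j2 and Eif3j1 are near-identical copies, and 82.4% of the 90-base windows in the last 600 transcript bases of Eif3j2 (421 of 511) also occur in Eif3j1. Eif3j1 stood at 69.8 and 63.0 CPM, a ratio of 0.901. No source used here says how reads that match both were assigned, so the Eif3j2 level is uncertain. The other eIF3 subunits had ratios from 0.85 for Eif3f to 1.27 for Eif3c, with a median log2 ratio of -0.03 over 13 genes.

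Ccdc122 encodes a coiled-coil protein (ENSMUSG00000034795, chromosome 14, 77036772 to 77112257, plus strand), and the neighbouring Lacc1, an enzyme of macrophage metabolism, runs from the same place in the other direction. The RefSeq starts (GRCm38.p6) lie at 77036772 for Ccdc122 and 77036617 for Lacc1. The 214 bases that hold both (chr14:77036588-77036801, plus strand) are shown because the 2 genes differed in how far they stood apart between the libraries. The capitals mark the 154 bases between the starts.
Ccdc122 and Lacc1: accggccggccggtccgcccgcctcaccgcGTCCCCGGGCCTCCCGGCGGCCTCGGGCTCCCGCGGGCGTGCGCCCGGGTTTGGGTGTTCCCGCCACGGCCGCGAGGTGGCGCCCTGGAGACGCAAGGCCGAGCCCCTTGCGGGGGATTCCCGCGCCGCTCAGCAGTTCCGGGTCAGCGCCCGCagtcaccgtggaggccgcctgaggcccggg
The stretch has 79.9% G and C and 33 CpG dinucleotides. In the GENCODE annotation the 2 gene models overlap there on opposite strands, and no source used here says whether the counting used strand. Among the 9 genes, 8 had a promoter entry in RefSeq. The 300-base windows of Sipa1l2, Ccdc122 and Tns1 were the richest in CpG, with 47, 45 and 37, and that of Akr1c18 held 5.

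GOF keratinocytes had 49.6 CPM of Ccdc122 and control keratinocytes 19.6 CPM, 2.53-fold apart (2.40 to 2.67). The corresponding Lacc1 levels were 14.6 CPM and 11.6 CPM, 1.26-fold apart (1.16 to 1.36). The Ccdc122 ratio was 2.44 with clusters weighted alike and 2.55 in male-called cells. Over the shared clusters Ccdc122 varied less than Myadm or Tns1, but it was not level. Shared clusters had 11.8 to 22.2 CPM in the control and 30.9 to 56.6 CPM in the GOF library. These ranges do not overlap, which the choice of the gene again favours, and no share of all genes was computed. The ratio was largest in sebaceous gland-like cluster 13 at 4.81 and smallest in cluster 15 at 2.02. Enox1, the next gene downstream, was at 8.37 and 5.79 CPM. The profiles most like that of Ccdc122 were those of the translation factor gene Eif4a1 (r = 0.906) and the kinase gene Nme2 (r = 0.884).

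Scel encodes sciellin, a precursor of the cornified envelope, the protein shell of the outermost epidermal cells (ENSMUSG00000022123, chromosome 14, 103513342 to 103612797, plus strand). Control keratinocytes had 13.7 CPM and GOF keratinocytes 28.8 CPM, 2.10-fold apart (1.97 to 2.25). The ratio was 1.84 with clusters weighted alike, 1.99 under median-of-ratios scaling and 1.89 with all cells thinned to 3000 UMIs. In the GOF library Scel was highest in basaloid-like cluster 2 (59.6 CPM), upper follicle-like cluster 10 (58.7 CPM), bulge-like cluster 12 (51.9 CPM) and basaloid-like cluster 5 (51.6 CPM). Differentiating-like cluster 4 had 24.3 CPM, less than these. In the control, cluster 10 had the highest level, 50.3 CPM, and there the ratio was 1.17 (0.996 to 1.37). The most similar profiles were those of Srcin1, a Src inhibitor (r = 0.947), and the adaptor gene Sh3kbp1 (r = 0.944).

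The other cornified envelope genes did not share 1 direction. Of 14 measured, 1 was at least 2-fold higher and 1 lower, with a median log2 ratio of -0.15. The higher one was Sprr2d, a small proline-rich protein, at 5.30 and 19.2 CPM, and the lower one was Krt78 at 4.77 and 1.76 CPM. The crosslinking enzyme gene Tgm5 had a ratio of 0.666 and Sprr1b 0.667. In male-called cells Sprr1b was at 0.262.

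Akr1c18 encodes 20α-hydroxysteroid dehydrogenase, which turns progesterone into a weakly active form (ENSMUSG00000021214, chromosome 13, 4132615 to 4150654, minus strand). It had 421 UMIs in control keratinocytes, 4.24 CPM, and 4062 UMIs in GOF keratinocytes, 41.4 CPM, 9.76-fold apart (8.82 to 10.8), and it was the most unevenly spread of the 9. Few cells carried it: 72.5% of its GOF UMIs lay in 1% of the keratinocytes, and 1 cell held 175 UMIs, 4.31% of all. After thinning, a UMI was present in 0.966% of the control keratinocytes and in 3.45% of the GOF ones (2.56% and 6.77% before), and in 1.67% and 0.826% of melanocyte-like cells. Sebaceous gland-like cluster 13 had 18.4 and 459 CPM and held 52.7% of the GOF UMIs. Cluster 18 had 71.5 and 733 CPM and upper follicle-like cluster 10 had 23.5 and 54.3 CPM. At the other end, basaloid-like cluster 2 had 0.707 and 0.886 CPM, and cycling cluster 8 had 0.192 and 1.04 CPM. Without cluster 18 the excess was 7.96-fold.

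The Akr1c18 difference moved with the sex call. In the GOF library female-called cells had 60.6 CPM and male-called cells 5.48 CPM, whereas male-called control cells had 3.96 CPM. The GOF to control ratio in male-called cells was thus 1.38 (1.13 to 1.68), and with clusters weighted alike 0.898 (0.721 to 1.12). Within GOF clusters the female-called to male-called ratio was 21 (18.2 to 24.2), an interval without the spread between cells. Of the 3281 Akr1c18 UMIs of female-called GOF keratinocytes, 1797 came from 47 cells of cluster 13 and 724 from 27 cells of cluster 18. In cluster 13, 45 of 47 female-called GOF cells held an Akr1c18 UMI, at 1190 CPM, but 7 of 86 male-called GOF cells did, at 2.94 CPM. Male-called control cells of that cluster had 19.0 CPM. The summed level of 13 sebaceous gland markers in cluster 13 was 18951 CPM in male-called GOF cells, and in female-called ones 19869 CPM. The 30 female-called control keratinocytes, few as they are, held 17 Akr1c18 UMIs, 77.2 CPM.

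Sex call and mouse of origin cannot be told apart inside the GOF library. The value of the female-called to male-called ratio depended on 1 filter. With at most 5% mitochondrial UMIs it was 3.31, the GOF to control ratio was 5.30 in all keratinocytes and 2.66 with clusters weighted alike, and the ratio in male-called cells was 1.86. That filter removed 41 of the 47 female-called GOF cells of cluster 13, whose remaining cells had 1004 CPM, so the cluster no longer met the minimum of 20 cells. In cluster 18 the female-called GOF cells with at most 5% mitochondrial UMIs had 2097 CPM.

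**Figure D2:**
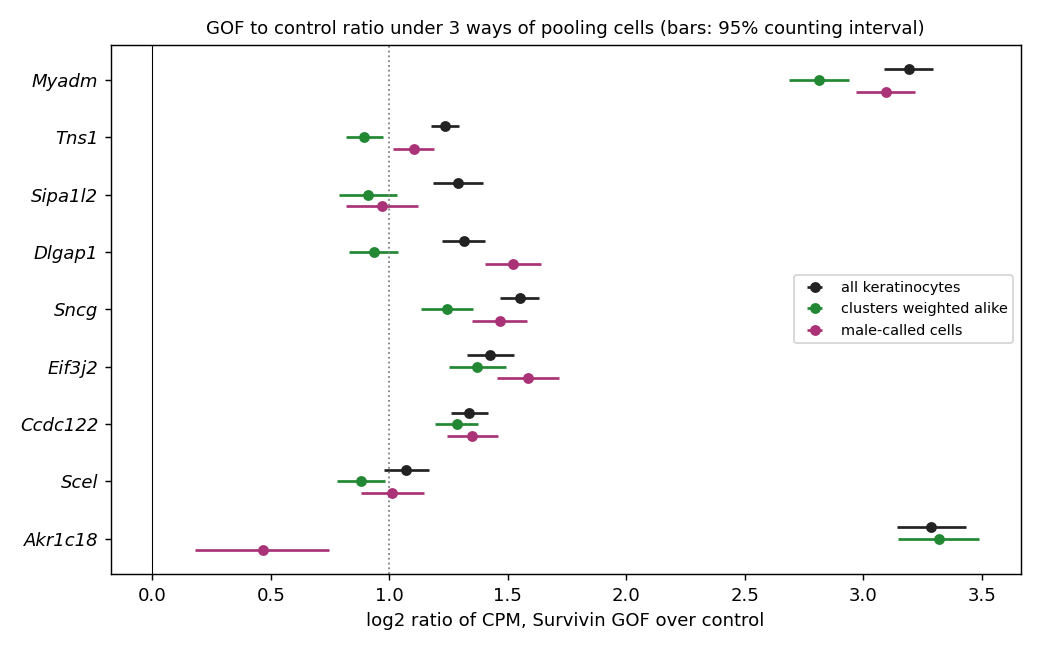
GOF to control ratio of CPM (horizontal axis, log2) of each gene in all keratinocytes (black), with clusters weighted alike (green) and in male-called cells (purple), with 95% counting intervals and a dotted line at 2-fold. Akr1c18 is the gene whose male-called value, a 1.38-fold ratio, lies far from the other 2.

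Of the 9 genes, 1 was at least 1.5-fold higher in female-called than in male-called GOF cells with clusters weighted alike, beside 3.03% of all genes tested, and none was at least 1.5-fold lower, beside 1.69%. The one was Akr1c18. Without regard to cluster the counts were also 1 and 0, beside 4.13% and 3.24%. The other ratios were 1.42 for Sncg, 1.35 for Sipa1l2, 1.20 for Tns1, 1.11 for Scel, 1.05 for Myadm, 1.02 for Ccdc122, 0.843 for Dlgap1 and 0.819 for Eif3j2. Birc5 was at 896 CPM in male-called GOF cells, against 740 CPM in female-called ones.

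Akr1c18 lies in a cluster of related genes on chromosome 13, and 2 of these measured within 200 kb were also higher. Akr1c13 was at 0.927 and 2.04 CPM. Akr1c19 was at 0.0705 and 1.39 CPM from 7 and 136 UMIs, a ratio of 19.6 (9.28 to 49.8). In cluster 13, 74 of the Akr1c19 UMIs came from female-called GOF cells and 1 from male-called GOF cells. In male-called cells the GOF to control ratios of Akr1c13 and Akr1c19 were 1.62 and 0.935. The Akr1c19 value rests on very few UMIs, in cluster 13 on 3 of the control and 1 of the GOF library. It can therefore show neither an excess nor its absence. The more distant Akr1e1 had a ratio of 1.73. None of 511 windows of 90 bases at the end of Akr1c18 was found in the transcripts of 8 related genes. Among steroid enzymes, Hsd17b2 was at 2.71 and 5.63 CPM, Hsd3b6 at 0.242 and 0.998 CPM and the glucocorticoid-activating Hsd11b1 at 13.8 and 5.01 CPM. The ratios of these 3 in male-called cells were 2.09, 1.47 and 0.921. Hsd17b7 had a ratio of 0.598. The profiles most like that of Akr1c18 were those of Reep5 (r = 0.945) and the transcription factor gene Cebpb (r = 0.933).

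For 8 of the 9 genes, all but Myadm, the surroundings were measured: 26 of 61 genes annotated within 200 kb reached 100 pooled UMIs. Of these, Akr1c13 and Akr1c19 were at least 2-fold higher, and none was at least 2-fold lower. The others ranged from Slain1 beside Scel (0.549-fold) to Shld2 beside Sncg (1.65-fold). Glud1, also beside Sncg, was at 117 and 170 CPM. Dpysl3 beside Eif3j2 was at 36.8 and 32.4 CPM. Near Tns1 the ratios ran from 0.931 (Pnkd) to 1.36 (Gm29358), near Dlgap1 from 0.919 (Myl12a) to 1.04 (Tgif1), and near Sipa1l2 they were 1.24 (Ntpcr) and 1.25 (Map10). Sncg, Ccdc122 and Scel all lie on chromosome 14, which holds 3.45% of all genes tested, but none of the 3 is within 200 kb of another.

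**Figure D3:**
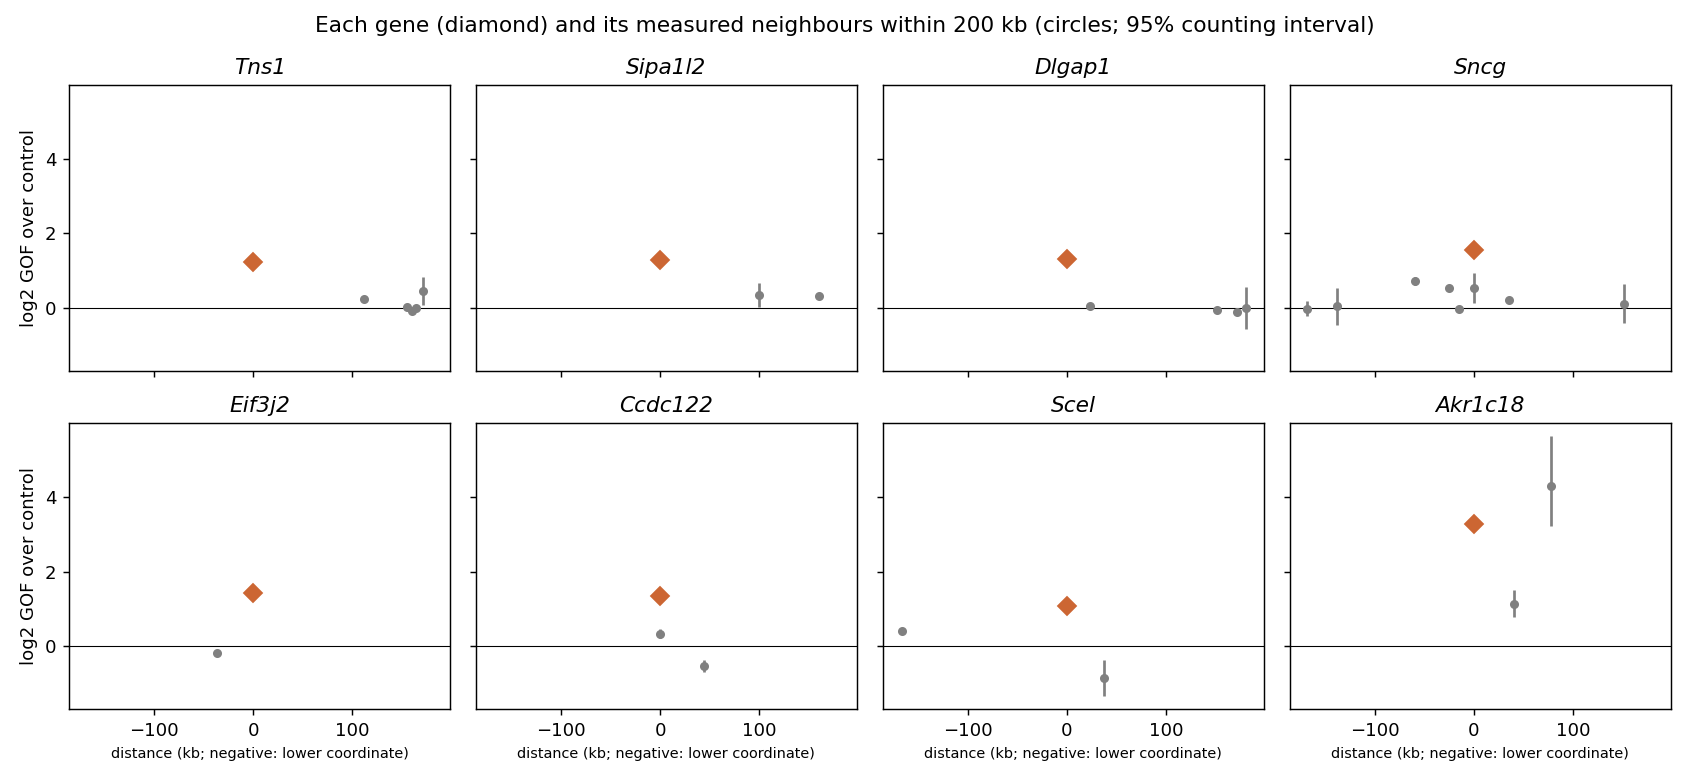
Log2 ratio of GOF to control CPM (vertical axes) for 8 of the 9 genes, Myadm left out (orange diamonds) and the measured genes within 200 kb (grey circles with 95% counting intervals), by distance between gene bodies in kb (horizontal axes). Apart from Akr1c13 and Akr1c19 the neighbours lie between 0.549- and 1.65-fold.

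With every cell thinned to 3000 UMIs, the share of keratinocytes with a UMI was also larger in the GOF library for the other 7 genes. The control and GOF shares were 9.52% and 20.05% for Tns1 (22.8% and 50.5% before thinning), 2.96% and 7.59% for Sipa1l2 (9.25% and 29.6%) and 3.40% and 8.84% for Dlgap1 (10.6% and 29.1%). For Sncg they were 4.35% and 11.4% (10.6% and 29.3%) and for Ccdc122 6.16% and 13.5% (16.6% and 45.3%). For Eif3j2 they were 3.40% and 8.49% (10.4% and 34.3%), and for Scel 3.99% and 7.33% (11.2% and 27.0%). Melanocyte-like cells, at median depths of 8499 and 11754 UMIs, had larger control shares than keratinocytes for Myadm, Sncg (5%), Tns1 (14.2%), Sipa1l2 (3.33%), Eif3j2 (4.17%) and Akr1c18, and a larger GOF share for Eif3j2 (9.92%). Those keratinocyte shares are therefore not read as expression in single cells, but whether they are background was not tested. Melanocyte-like cells are no blank, since they held Krt14 above the keratinocyte levels. Their shares also rest on few cells, for Sncg in the control 6 of 120 (1.86% to 10.6%). For Scel the melanocyte-like shares were 0.833% and 1.65%, and for Dlgap1 1.67% and 5.79%, below those of keratinocytes in both libraries. Melanocyte-like cells had 45.8 and 111 CPM of Tns1, 12.9 and 35.6 CPM of Sipa1l2 and 12.1 and 29.2 CPM of Eif3j2, values in which the part of keratinocyte RNA was likewise not tested. Of Akr1c18 they held 2 UMIs in each library.

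Inside the GOF library, cells varied widely in Birc5. After thinning to 3000 UMIs per cell, 2180 GOF keratinocytes held no Birc5 UMI and 1574 held 4 or more. The latter had 1705 CPM of Birc5 and the former 141 CPM, a gap that the grouping itself makes. Cells without a Birc5 UMI in the draw are thus not free of Birc5. Their 141 CPM, from full counts, exceeds the 55.2 CPM of control keratinocytes. Over 12 clusters weighted alike, 0 of the 9 genes were at least 1.5-fold higher in the top class, beside 0.928% of all genes tested, and 1 was at least 1.5-fold lower, beside 2.21%. With all clusters pooled the counts were 0, beside 4.64%, and 2, beside 4.71%, these being Dlgap1 and Akr1c18. For 1 or more Birc5 UMIs against 0 within clusters, 0 were higher, beside 0.698%, and 1 lower, beside 1.92%.

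Myadm had the largest ratio of top to zero class among the 9. It stood at 69.9 CPM in cells without a Birc5 UMI, 75.8 CPM with 1, 81.9 CPM with 2 or 3 and 87.5 CPM with 4 or more. With clusters weighted alike the ratio was 1.25 (1.17 to 1.34), and 4.94% of all genes tested had a larger one. The top class was higher in 11 of 12 clusters, the exception being cluster 15 at 0.848 (0.56 to 1.26), and the largest ratio was 2.13 in differentiating-like cluster 4. The interval also included 1 in clusters 6, 7, 8, 9 and 11. The share of all genes higher in as many clusters was not computed. In cells without any UMI of 12 core mitotic genes the ratio was 1.24, and there too 0 of the 9 genes were at least 1.5-fold higher, beside 0.808%. The GOF cells with no Birc5 UMI at this depth had 69.9 CPM of Myadm, against 8.60 CPM in control keratinocytes.

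Eif3j2, Sipa1l2, Ccdc122 and Tns1 had ratios of 1.13, 1.13, 1.12 and 1.11 with clusters weighted alike, but single clusters lay farther from 1. For Tns1 the interval of the ratio lay above 1 in 6 of 12 clusters (2, 4, 5, 6, 7 and 11), with 1.72 (1.16 to 2.57) in basaloid-like cluster 2, 2.58 (1.35 to 5.43) in basaloid-like cluster 5 and 4.68 (1.89 to 12.3) in tail scale-like cluster 11. It lay below 1 in sebaceous gland-like cluster 13, at 0.526 (0.364 to 0.76), and in cluster 0 the ratio was 1.01. In clusters 5, 7 and 11 the zero class held only 11, 8 and 9 Tns1 UMIs. Many gene and cluster pairs were compared, and the share of all genes with such intervals was not computed. Sipa1l2 reached 1.66 (1.18 to 2.35) and Eif3j2 1.36 (1.03 to 1.78) in cluster 2, and Ccdc122 reached 1.55 (1.18 to 2.03) in differentiating-like cluster 4 and 1.44 (1.07 to 1.93) in cluster 9. The pooled levels of Eif3j2, Sipa1l2, Ccdc122 and Tns1 in GOF cells without a Birc5 UMI were 28.8, 24.3, 46.3 and 76.7 CPM. Scel was at 0.957 (0.853 to 1.07), an interval that includes 1, with 0.648 (0.421 to 0.973) in cluster 4. Dlgap1 had 44.4 CPM in the zero class and 26.6 CPM in the top class, but the ratio was 0.886 with clusters weighted alike and 1.16 when Dlgap1 too was counted in the thinned UMIs. By cluster it ran from 1.37 (1.04 to 1.79) in cluster 0 to 0.5 (0.275 to 0.861) in cluster 15, apart from clusters 11 and 13 with few Dlgap1 UMIs. Sncg was at 51.9 and 37.0 CPM, a ratio of 0.788 (0.719 to 0.864) with clusters weighted alike, and as low as 0.167 (0.0575 to 0.398) in cluster 2.

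Akr1c18 was lower where Birc5 was higher. It had 69.6 CPM in cells without a Birc5 UMI and 25.1 CPM in the top class, and the ratio with clusters weighted alike was 0.2 (0.18 to 0.222). In sebaceous gland-like cluster 13, which weighs most in that ratio, the 2 values were 987 and 197 CPM, from 1177 and 432 UMIs. Sex call goes with both genes there. Female-called GOF cells of cluster 13 had 620 CPM of Birc5 and 1190 CPM of Akr1c18. Male-called ones had 1661 and 2.94 CPM. The part of sex call in the contrast of that cluster was not tested. The gap narrowed when sexes were kept apart, to 0.522 in female-called cells, 0.316 in male-called cells and 0.488 with cluster and sex call weighted alike. Without a core mitotic UMI it was 0.302.

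The Birc5 classes differed in more than Birc5. From the zero to the top class the median depth rose from 11194 to 12910.5 UMIs, the share of cells with a core mitotic UMI from 40.1% to 50.9% and the share in cluster 0 from 20.1% to 31.2%. Female-called cells made up 72.1% and 62.4%. The part of depth in these ratios was not tested beyond the thinning. Cell by cell, Spearman's correlation with Birc5 at 3000 UMIs ran from -0.10 for Akr1c18 to 0.05 for Myadm over 6315 cells of 1 library, too weak in sparse counts to be read.

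**Figure D4:**
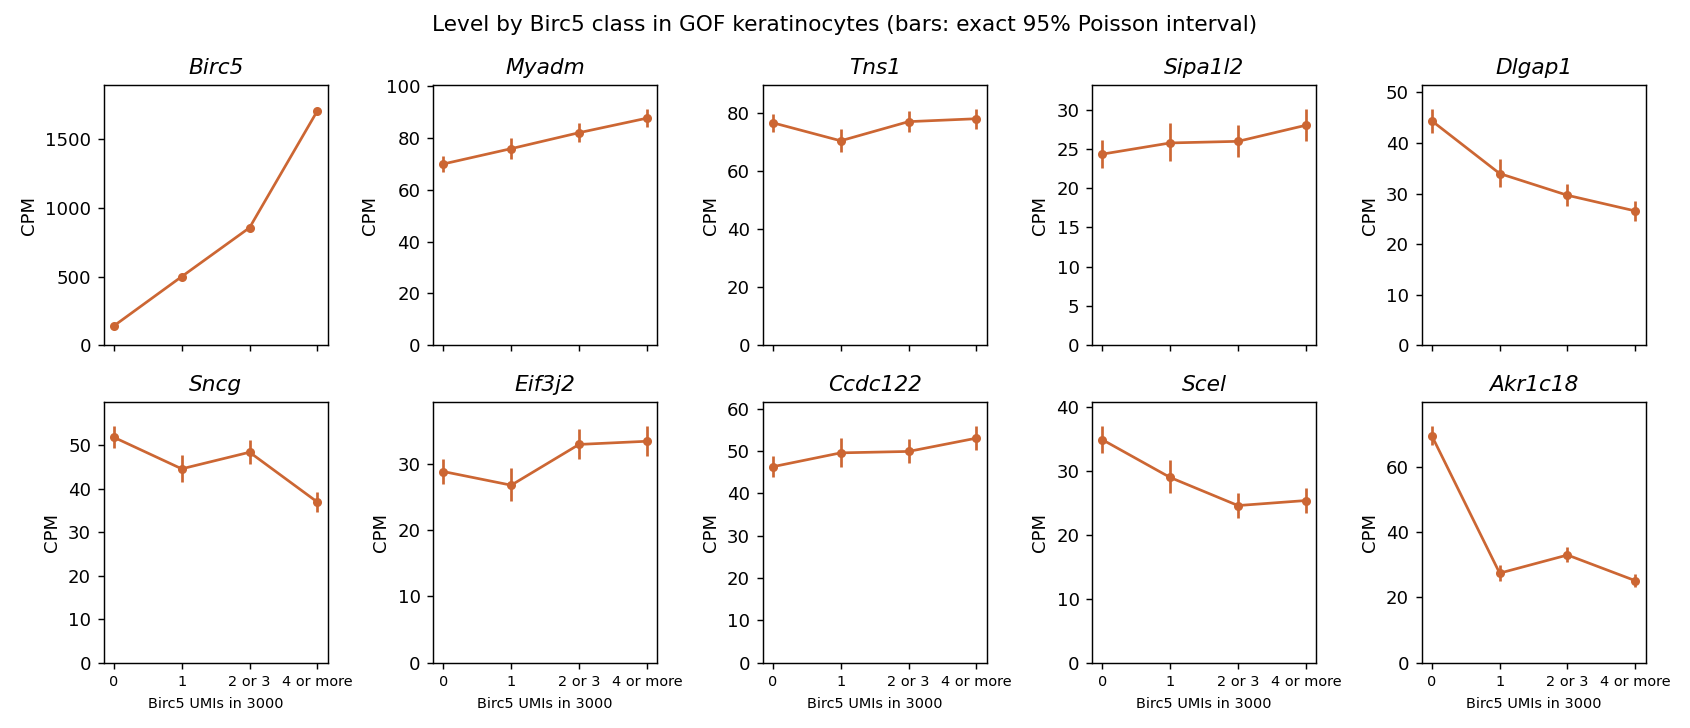
Level in CPM (vertical axes from 0) of Birc5 and the 9 genes in GOF keratinocytes by number of Birc5 UMIs among 3000 (horizontal axes: 0, 1, 2 or 3, 4 or more), with exact 95% Poisson intervals and all clusters pooled. Birc5 climbs from 141 to 1705 CPM while Myadm goes from 69.9 to 87.5 CPM and Akr1c18 from 69.6 to 25.1 CPM.

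The control library has native Birc5 alone, and there cells with at least 1 Birc5 UMI in 3000 were compared with cells without. With clusters weighted alike 0 of the 9 genes were at least 1.5-fold higher, beside 0.751% of all genes tested, and none was at least 1.5-fold lower, beside 1.47%. Ratios ran from 0.749 for Scel (0.593 to 0.948) to 1.08 for Myadm (0.869 to 1.35). The 12 core mitotic genes had a median log2 ratio of GOF to control of -0.57, with Ube2c at 139 and 71.3 CPM and Cdc20 at 84.2 and 43.7 CPM.

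Over the 13 GOF clusters the 9 genes did not form 1 pattern. Myadm, Tns1 and Sncg were alike (r from 0.653 to 0.847 between pairs), Dlgap1 and Scel had r = 0.624, and Eif3j2 and Ccdc122 had r = 0.111. The correlation of each profile with that of Birc5 ran from -0.49 for Scel to 0.781 for Ccdc122. These points share 1 library and differ in depth per cluster, and they carry no test.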

How the data were processed

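Both libraries were deposited as raw counts, whole UMIs for each gene in each barcode. The submitters' processing notes name Cell Ranger 6.1.1, R 4.3.0, Seurat 4.2.0 and mm10. The control matrix held 24844 barcodes (146216083 UMIs) and the GOF matrix 11438 (126329382 UMIs).

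Cells with at least 1500 genes and at most 10% mitochondrial UMIs were kept (10993 and 6922). The 6% of each library with the highest doublet scores was removed, since the automatic doublet threshold marked 0. Clusters came from scanpy 1.11.5 (2000 variable genes, 30 components, 15 neighbours, Leiden resolution 1) under Python 3.11.15, numpy 2.4.6 and scipy 1.17.1, and were named from marker lists. Clusters 16 and 20 (melanocyte-like) and 17 (immune-like) were left out of the keratinocytes.

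UMIs were summed per population and scaled to CPM. CPM has exact Poisson intervals, a pooled ratio an exact conditional one, and the Mantel-Haenszel ratio, over clusters with at least 20 cells in both groups, the Greenland-Robins one. The ratio code recovered known folds in simulated counts. Thinning drew 3000 UMIs per cell without replacement, leaving out 91 control and 10 GOF keratinocytes. All-gene shares use genes with at least 100 pooled UMIs, Birc5 excepted. Coordinates are from GENCODE vM21, which held 32158 of the 32286 features, and promoters from RefSeq.

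Named were the 9 genes and Birc5, the genes within 200 kb with at least 100 pooled UMIs (those around Myadm are not reported here), up to 4 genes per family list with the largest log2 ratio, and the 2 genes most alike in cluster profile. Other family members, markers and leading genes of clusters were named after their values were seen. The genes, the lists and this rule were chosen with earlier results of these data known. Alternatives covered the cell filters, doublets, clustering, scaling, thinning and sex calls.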

Additional observations from a re-analysis of the deposited data

How the results depend on the processing

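No paired analysis was possible because each genotype has 1 library and the labels give no replicate numbers. For the same reason no replicate could be left out. Over 390 recomputed values, 320 stayed within the counting interval of the reported ratio (counts of genes, within 1.5 times), 70 moved further and 0 of the ratios past a threshold changed direction. Dropping the UMI minimum alters only the all-gene share, so the values of that setting equal the reported ones by construction. They are among the 320. Below the thresholds, 9 ratios of 4 genes crossed 1. They were 6 of the Scel ratios by Birc5 class (1.01 to 1.16 against 0.957), 1 each by Birc5 class of Ccdc122 (0.995 in male-called cells) and Dlgap1 (1.16 in thinned UMIs), and the male-called Akr1c18 ratio (0.898 with clusters weighted alike). The count of genes at least 2-fold higher in male-called cells, 7, fell to 4 with clusters weighted alike, and the cause was not tested. Under the other settings it was 6 to 8. The count in all keratinocytes was 8 or 9, and that with clusters weighted alike 5 to 7, the 7 with genes centred within each library before clustering. The counts by Birc5 class (0) and by sex call (1) did not change under the settings run for them. Without a UMI minimum, 12.5% of all genes detected were at least 2-fold higher in GOF keratinocytes.

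Akr1c18 varied most. Its pooled ratio was 5.30 with at most 5% mitochondrial UMIs and 12.3 without clusters 0, 1, 3, 14 and 21. Its ratio of top to zero Birc5 class was 0.361 with no covariate and 0.329 for 1 or more Birc5 UMIs against 0. The settings that leave out clusters, ask for 100 cells per cluster, or add sex call or cluster to a comparison were chosen after seeing the data. Depth limits the rare genes most: at 3000 UMIs per cell 1 UMI is the smallest step, and shares of cells rest on it.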
